A study of Saccharomyces cerevisiae with 4 samples.

Results

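The outermost open reading frames (ORFs) of the yeast chromosome arms were described by their transcript levels in cells with and without PHO23, growing and starved of nitrogen. Systematic ORF names carry the chromosome letter, the arm, and a number that grows toward the chromosome end. On each of the 32 arms, every row with one of the 7 highest distinct numbers in the table was taken. This gave 281 rows, of which 5 at such positions were left out, so that 276 of the 6678 rows of the table were members, between 6 and 15 on an arm. The rule itself uses no measured value, but it was set with earlier results of these data known.

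The study used SEY6210, a laboratory strain of budding yeast (Saccharomyces cerevisiae). It is MATα and GAL, and in every group it carried suc2-∆9 together with the auxotrophic alleles trp1-∆901, lys2-801, ura3-52, his3-∆200 and a mutant leu2. The wild type was compared with its derivative JMY047, in which PHO23 is replaced (pho23∆::HIS5). Each genotype was sampled growing at mid-log phase in YPD, a rich medium, and after a shift to SD-N, which lacks nitrogen, for 2 h. Total RNA was sequenced once per genotype and condition. The 4 groups therefore hold 1 library each, no replicate spread exists within a group, and no test between groups was made. A difference is called here only by its size.

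Genes next to yeast telomeres lie in chromatin that can silence them. The Sir proteins, recruited by Rap1 bound to the telomeric repeats, remove acetyl groups from histones and compact the last stretch of the chromosome, and other deacetylases, among them Hda1 with the corepressor Tup1-Cyc8, act further in. Pho23 is a subunit of the large Rpd3 histone deacetylase complex, and loss of Rpd3 complex subunits has been reported to strengthen the silencing of reporter genes placed at telomeres. Many genes near yeast telomeres belong to families that are repeated from end to end, such as seripauperin cell wall proteins (PAU), COS membrane proteins, helicases of the Y prime elements, and genes for the use of maltose, sugar alcohols and thiamine.

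The repetition decides what an RPKM (reads scaled to the length of the ORF and to the reads of the library) can say about a member, so sequences of the reference strain are shown first (RefSeq, build R64, sacCer3). The chromosome end itself is the repeat to which Rap1 binds, here the last 60 bases of the right end of chromosome I (chrI:230159-230218, plus strand), with runs of G in capitals.

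chromosome I right end: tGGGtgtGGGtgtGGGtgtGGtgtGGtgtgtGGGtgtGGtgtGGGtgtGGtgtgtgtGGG

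HSP33 (chrXV:1079169-1079258, minus strand), HSP32 (chrXVI:11887-11976, plus strand) and SNO4 (chrXIII:918990-919079, minus strand) are members on 3 chromosomes that encode close copies of the Hsp31 chaperone. Their first 90 coding bases show how little separates them, and capitals mark bases that differ from HSP33.

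HSP33: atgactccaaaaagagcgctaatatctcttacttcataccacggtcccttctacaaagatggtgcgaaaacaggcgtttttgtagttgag
HSP32: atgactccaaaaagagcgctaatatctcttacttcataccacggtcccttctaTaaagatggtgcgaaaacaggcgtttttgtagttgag
SNO4: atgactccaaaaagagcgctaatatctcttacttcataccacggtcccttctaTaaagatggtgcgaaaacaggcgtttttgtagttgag

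Over their full 714 bases, HSP32 differs from HSP33 at 4 positions and SNO4 at 8. The COS family holds both kinds of gene. COS8 (chrVIII:6401-6490, plus strand) and COS3 (chrXIII:7244-7333, plus strand) are alike, while COS12 (chrVII:2790-2879, plus strand) is not. Capitals mark bases that differ from COS8 when the starts are laid side by side without gaps.

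COS8: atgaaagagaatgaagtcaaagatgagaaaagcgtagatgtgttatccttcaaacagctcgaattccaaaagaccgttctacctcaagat
COS3: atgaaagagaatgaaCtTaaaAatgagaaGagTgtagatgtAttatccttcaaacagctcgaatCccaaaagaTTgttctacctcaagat
COS12: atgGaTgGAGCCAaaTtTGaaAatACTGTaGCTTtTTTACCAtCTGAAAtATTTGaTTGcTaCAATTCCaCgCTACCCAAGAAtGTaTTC

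COS3 differs from COS8 at 9 of the 90 bases and COS12 at 67. COS12 shares 0 of its 50-base windows with COS8.

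Of the 276 members, 206 were in the RefSeq table and have a position and a sequence. Their median distance from the chromosome end was 8.78 kb, with a range from 0.052 to 34.7 kb. RefSeq places 41 of them inside an annotated telomeric region (the X and Y prime elements) and 165 outside. The other 70 carry only the deposited name. In 65 of the 206 (31.6%), at least 90% of all 50-base windows occurred once in the genome, compared with 5537 of 5767 other ORFs (96%). In 66 members, under 10% did. In all, 120 members fell into 33 groups of near-identical copies, the largest holding 42, and 51 shared all 4 deposited values with another member. Such copies are not separate measurements. How reads that match several places were counted is not given in the sources used here, and the reference sequence is that of another strain than SEY6210.

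PHO23 itself had an RPKM of 12.3 in growing and 23.4 in starved wild type, and of 0.13 and 0.0546 in the deletion, as its label says. Estimated depths were 23000000, 27500000, 19700000 and 21800000 reads for growing wild type, growing deletion, starved wild type and starved deletion. The outermost ORFs were weakly expressed. In the same order, their median RPKM was 4.78, 2.83, 8 and 5.44, compared with 31.7, 35.4, 47.5 and 47.1 for the other ORFs. They made up 0.34%, 0.296%, 0.951% and 0.631% of the summed RPKM. An RPKM of 10 was reached by 58, 50, 105 and 83 members, and 162 members reached it in no library. In bulk RNA, fewer cells with a transcript and less transcript per cell cannot be told apart.

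Without PHO23, the outermost ORFs were lower more often than the rest of the genome, in growing and in starved cells. Folds were taken as log2((RPKM + 1)/(RPKM + 1)), deletion over wild type, and an ORF was eligible for a count where either of both libraries compared had an RPKM of 10 or more. In growing cells, 15 of 61 eligible members (24.6%) were at least 2-fold lower, beside a background of 2.08% of all eligible ORFs, and 3 were at least 2-fold higher, beside 3.95%. In starved cells, 35 of 111 (31.5%) were at least 2-fold lower, beside a background of 4.13%, and 0 were at least 2-fold higher, beside 5.3%. Members were 1.12% of the eligible ORFs in growing cells but 13.4% of those that were lower, and in starved cells 1.86% and 14.3%. Of the ORFs that were higher, members were 1.4% in growing cells, near their share of the eligible, and 0% in starved cells. With no replicates, none of these shares has a test. An ORF can be eligible through wild type alone, and 7 of the 15 and 23 of the 35 lower members reached 10 RPKM only there, so these shares are no support for a lower level by themselves. Among ORFs at 10 RPKM or more in both libraries, a filter that removes ORFs that are much lower, 8 of 47 members (17%) were at least 2-fold lower in growing and 12 of 77 (15.6%) in starved cells, beside 1.22% and 2.71% of all such ORFs.

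Eligibility hides members that are low everywhere, so all 276 were also counted at any RPKM. Then 46 (16.7%) were at least 2-fold lower in growing cells, beside 2.95% of all ORFs, and 71 (25.7%) in starved cells, beside 5.14%. The median log2 fold of all members was -0.16 in growing cells, with 177 of 276 below 0, and 0.06 for the other ORFs. In starved cells it was -0.52, with 220 of 276 below 0, and -0.04 for the others. The pair of comparisons shares no library. In both of them 173 members (62.7%) lay below 0, compared with 28.8% of the other ORFs. Of the 58 members eligible in both, 11 (19%) were at least 2-fold lower in both and 0 were higher in both, compared with 1.19% of the other ORFs lower in both. Some of the 11, such as COS12, reached 10 RPKM only in wild type, so this share is no support by itself.

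Low expression alone spreads folds, so members were set beside other ORFs of similar mean RPKM. Between 10 and 30 RPKM, 7 of 39 members and 41 of 1627 other ORFs were at least 2-fold lower in growing cells, and 11 of 39 and 63 of 1627 in starved cells. Between 30 and 100 RPKM the counts were 8 of 31 and 30 of 2343 in growing cells, and 6 of 31 and 59 of 2343 in starved cells. The share was higher among members in each of the 6 bins of RPKM and in both conditions.

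**Figure D1:**
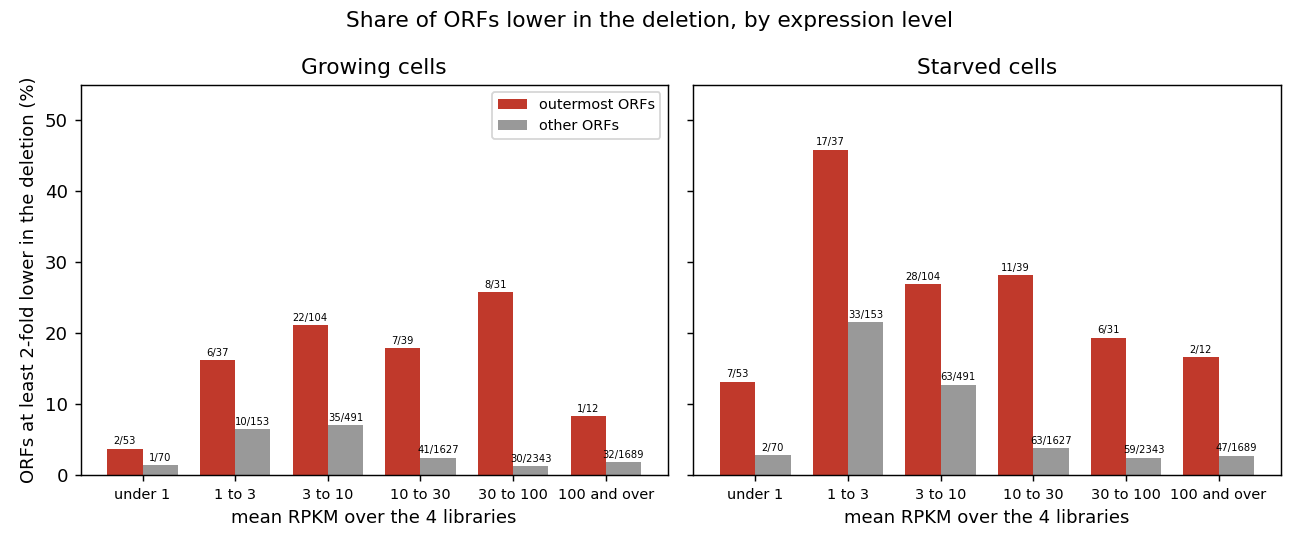
Share of ORFs at least 2-fold lower in the deletion (y axis, percent, at any RPKM) in 6 bins of mean RPKM over the 4 libraries (x axis), for growing and starved cells. Red bars are the outermost ORFs, grey bars the other ORFs, with the number lower and the number in the bin above each bar; the red bar is higher in every bin, for example 8 of 31 against 30 of 2343 in growing cells at 30 to 100 RPKM.

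Medians of members inside and outside the annotated telomeric regions differed, but most of those inside are copies of each other. The 165 outside had a median log2 fold of -0.51 in growing and -0.80 in starved cells, with 131 and 156 of them below 0. The 41 inside, none of which had 90% unique windows, had medians of 0.26 and -0.01. Most of them belong to the largest group of near-identical copies, which holds 42 members, so they are not separate measurements. Among the 41 were the 19 members annotated as Y prime helicases, which had RPKM values of 4.07 to 7.49 in growing wild type and 4.70 to 9.76 in the growing deletion. Their log2 folds were 0.17 to 0.40 in growing cells and -0.17 to 0.12 in starved cells. The lower values were also measured where few reads can be shared. The 65 members with at least 90% unique windows had medians of -0.41 and -0.72, and 10 of 32 eligible (31.2%) and 17 of 50 eligible (34.0%) were at least 2-fold lower. Among other ORFs with at least 90% unique windows, 1.47% and 3.2% of the eligible were. Here too an ORF could be eligible through wild type alone, as were COS12 in both conditions and YER187W in starved cells. These shares are therefore no support by themselves.

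Distance from the end was then examined over RefSeq ORFs outside telomeric regions. Medians in growing cells were -0.44 within 5 kb, -0.27 at 5 to 10 kb and -0.53 at 10 to 15 kb. In starved cells they were -0.69, -0.81 and -0.92. Beyond 15 kb the medians were closer to 0, with -0.14 and -0.33 at 15 to 20 kb, 0.01 and -0.12 at 30 to 40 kb, and 0.06 and -0.04 beyond 100 kb. The share of eligible ORFs at least 2-fold lower in starved cells was 40.5% at 10 to 15 kb, 6.82% at 15 to 20 kb and 3.35% beyond 100 kb. In growing cells there was no such fall at 15 kb, with 16.7% at 5 to 10 kb, 20% at 10 to 15 kb, 13.3% at 15 to 20 kb, 9.09% at 20 to 25 kb, 15.9% at 25 to 30 kb and 1.53% beyond 100 kb. Starved shares between 20 and 100 kb are not given here. Some ORFs there were also lower in starved cells, such as KAR4 at 27.9 kb (-2.00) and ZNF1 at 28.2 kb (-1.42), though most were not 2-fold lower. All these shares include ORFs that can be eligible through wild type alone, so they are no support by themselves. Members with the number next inside the limit, the seventh from the end, had medians of -0.49 and -0.59, and the rows next outside it, the eighth, -0.09 and -0.43.

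**Figure D2:**
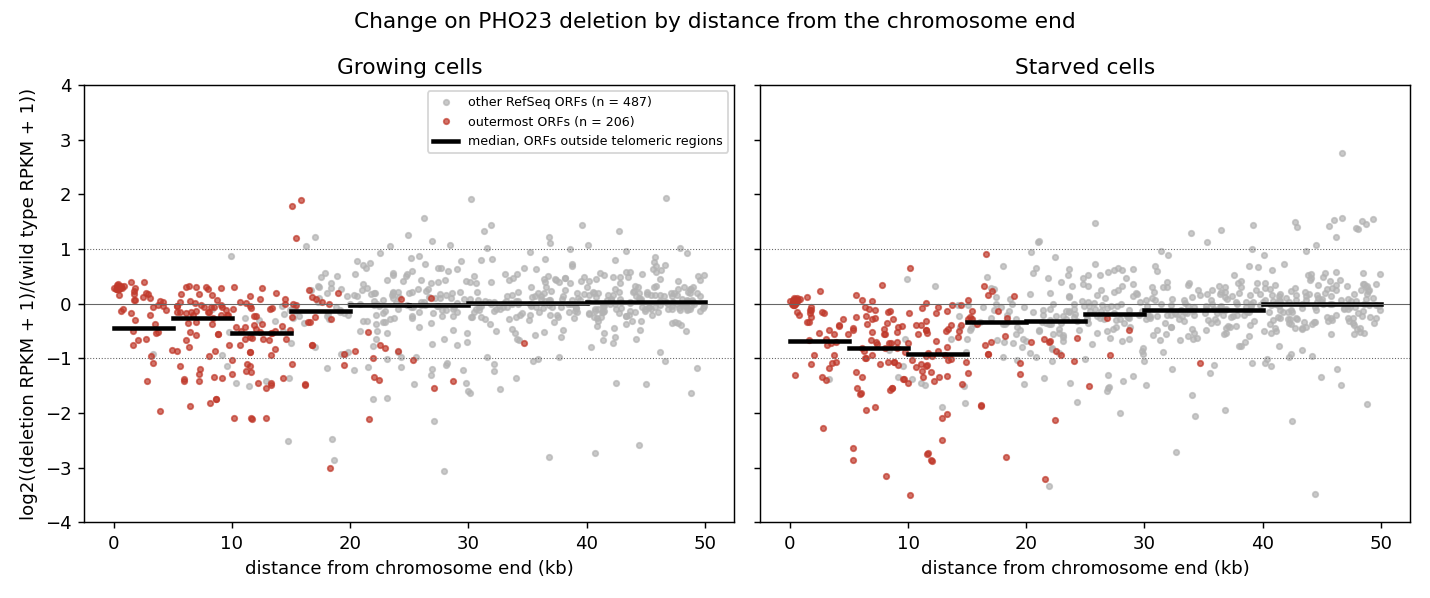
Log2 fold, deletion over wild type (y axis), against the distance from the chromosome end in kb (x axis) for RefSeq ORFs within 50 kb, in growing and starved cells. Red points are the 206 outermost ORFs with a position, grey points the other ORFs, black lines the median in each bin of distance outside telomeric regions; the medians are lowest within 15 kb, -0.53 and -0.92 at 10 to 15 kb.

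The lower values were found on most arms. Median member folds lay below 0 on 24 of 32 arms in growing cells and on 30 in starved cells, and outside telomeric regions on 29 and 31. Arms that carry copies are not separate measurements. For example, PAU14 and IMA3 on the left arm of chromosome IX have the same values as PAU1 and IMA4 on that of chromosome X. The right arm of chromosome X had the lowest medians, -1.44 and -1.65. It carries MPH3 (a maltose permease), SOR1 (sorbitol dehydrogenase), HXT16 (a transporter of sugars and polyols) and THI11 (synthesis of the thiamine pyrimidine), each with close copies on other arms. The highest arm medians were 0.29 on the left arm of chromosome XIII in growing cells and 0.05 on the left arm of chromosome XII in starved cells.

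**Figure D3:**
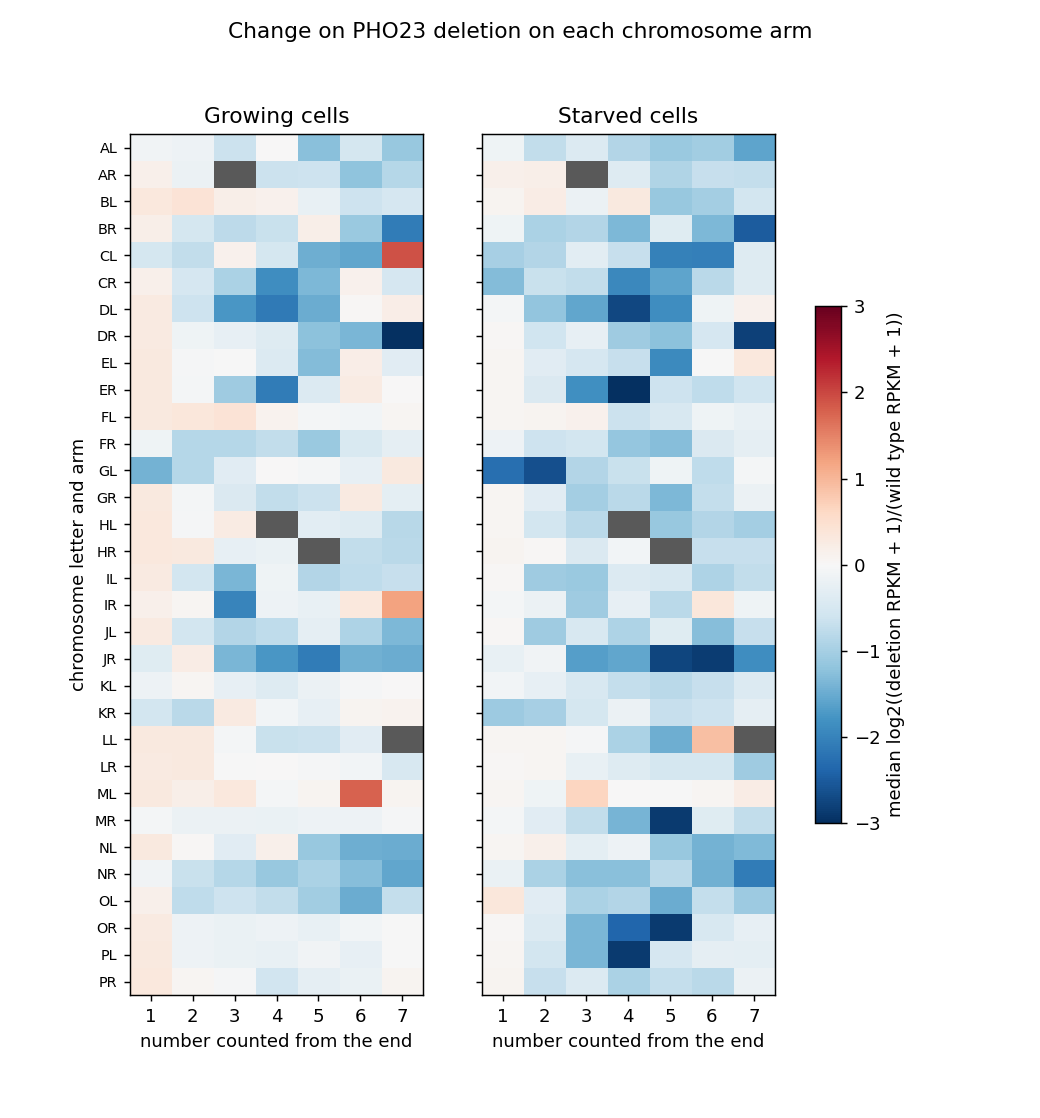
Median log2 fold, deletion over wild type (colour, red higher and blue lower, with the scale ending at -3 and 3), of the members at each number counted from the end (x axis) on each of the 32 arms (y axis, chromosome letter and L or R), in growing and starved cells. Dark grey squares hold no member; blue dominates at numbers 3 to 7, and the first number is mostly pale, with medians of 0.29 and 0.05.

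FDC1, YIR042C, YER187W, YER188W and YAL064W were named because their log2 folds were among the lowest of the eligible members. All but YAL064W have only unique windows. They show the largest changes, and the medians of members with unique windows, given above, were smaller in size. FDC1, ferulic acid decarboxylase, 18.3 kb from the right end of chromosome IV, had an RPKM of 43.2 and 4.47 in growing wild type and deletion, and of 80.1 and 10.6 in the starved pair. Both deletion libraries lay below both wild-type libraries. The log2 folds were -3.01 in growing and -2.81 in starved cells, and the ratio of RPKM in growing cells was 0.103, with a 95% binomial interval of 0.0885 to 0.121. This interval uses the estimated depth and covers counting error only.

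YIR042C, of unknown function and 3.90 kb from its end, had 11.3 and 2.13 RPKM in growing wild type and deletion, and 194 and 92.1 after starvation. It was lower in the deletion in both conditions (log2 folds of -1.97 and -1.07) and higher after starvation in both genotypes. YER187W, also of unknown function, had 6.58 and 0.767 in growing cells and 17.6 and 0.627 in starved cells. Its starved log2 fold of -3.51 was the lowest of all eligible members, and its ratio of RPKM was 0.0357 (interval 0.0132 to 0.0816). YER188W, next to it by number, went from 11.5 to 0.409 in starved cells, a log2 fold of -3.15. YAL064W went from 30.4 to 2.41 (-3.20), and it has 83.9% unique windows.

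Other members at least 2-fold lower in both conditions were expressed at a range of levels. They included HXK1, a hexokinase, with 73.7 and 33.7 RPKM in growing and 51.6 and 20.9 in starved cells, and MAL33, the activator of the maltose genes, with 29.0 and 12.9, and 113 and 43.7. AIF1, a mitochondrial cell death effector, had 40.5 and 17.8, and 181 and 75.3. Of the 11 members lower in both, 8 had at least 90% unique windows, 2 had no RefSeq position, and 1 had no unique window, at distances of 2.79 to 18.3 kb. The 2 without a position, YCL065W and YFR052C-A, stand next by number to HMLALPHA1 and HXK1, which are also among the 11. Whether they share reads with these could not be checked, so 11 may overstate the separate measurements. AIF1 and YDR541C, with log2 folds of -1.23 in both conditions, fall outside the rule for named genes and were chosen after their values were seen, as was YFR052C-A, with -1.02 and -1.01.

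The member with no unique window is HMLALPHA1, at the silent mating type locus, whose windows are all shared with MATALPHA1, the active copy that a MATα cell transcribes. Its RPKM was 104 and 37.3 in growing wild type and deletion and 267 and 65.1 in starved cells (log2 folds of -1.46 and -2.02). The next ORF by number, YCL065W, had folds of -1.55 and -2.06. HMLALPHA2, which shares all its windows with MATALPHA2, had 186 and 129, and 467 and 291, with folds of -0.52 and -0.68. The silent and the active copy cannot be told apart in these values. HPF1, a cell wall mannoprotein, went from 29.6 to 10.4 in growing cells (-1.42) and from 49.1 to 34.8 in starved cells (-0.48), and YOL155W-A, in the same place by number, had folds of -1.55 and -0.94.

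**Figure D4:**
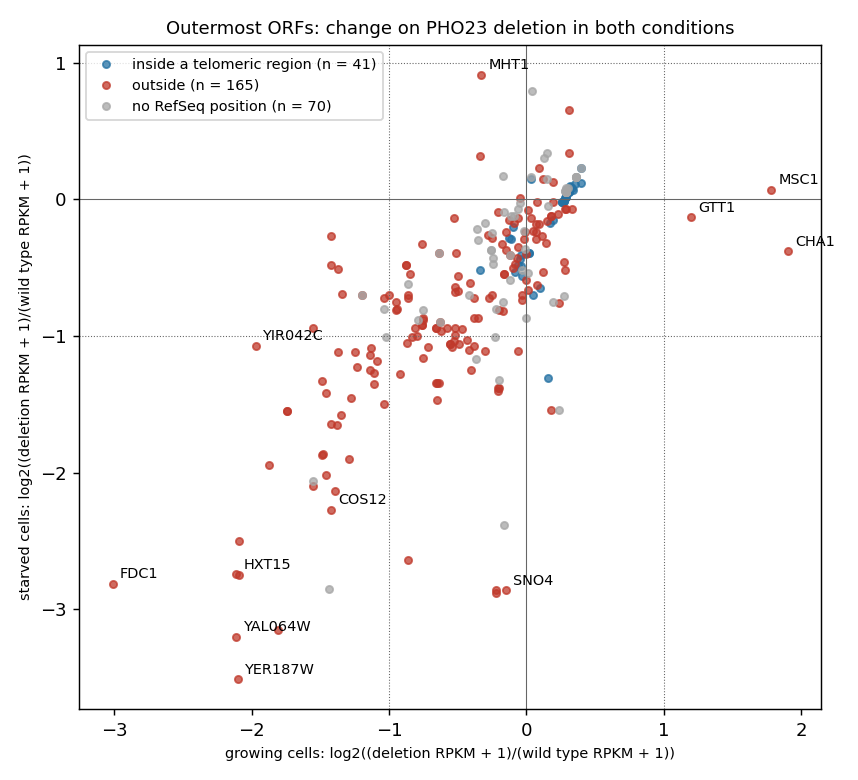
Log2 fold, deletion over wild type, in growing cells (x axis) and starved cells (y axis) for the 276 outermost ORFs; blue points lie inside annotated telomeric regions, red outside, grey have no RefSeq position, and dotted lines mark 2-fold. Most points lie below 0 on both axes (173 of 276), FDC1 is lowest in growing cells at -3.01, and CHA1, MSC1 and GTT1 stand apart on the right.

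Among repeated families, the COS proteins, which help sort membrane proteins for degradation, were split. COS12 had 19.8 and 6.78 RPKM in growing wild type and deletion and 18 and 2.92 in starved cells, with log2 folds of -1.42 and -2.27. COS10 had 12.7 and 5.43, then 16.9 and 6.92, with -1.09 and -1.18. Both have only unique windows. The other 9 COS members had folds of -0.06 to 0.33 in growing cells and -0.40 to -0.07 in starved cells, at 32.6 to 59.7 RPKM in growing wild type. COS9, with 99.1% unique windows, was among these 9 and had 32.6 RPKM in both growing libraries, and 68.6 and 51.7 in the starved ones.

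The 19 PAU members, seripauperins of the cell wall, were low, with 0.106 to 2.43 RPKM in growing wild type and 0.541 to 7.87 in starved wild type, and none was eligible. Their median log2 fold was -0.40 in growing cells, with 18 of 19 below 0, and -0.96 in starved cells, with 19 of 19 below 0. Many are near-identical copies, such as a group of 7 that holds PAU8 and PAU10, so these counts are not of separate measurements. Few reads stand behind the values. PAU8 had about 10 and 7 estimated reads in growing wild type and deletion, and its ratio had an interval of 0.189 to 1.7. In both conditions, 28.8% of ORFs that are no members lay below 0. The 11 PAU, DAN and TIR genes elsewhere had medians of -0.22 and -0.85. PAU3, the member with the largest fold, had 2.34 and 0.316 RPKM in growing cells and 7.87 and 1.96 in starved cells.

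Members for sugars and vitamins had some of the lowest family medians on this scale. The 5 hexose transporter members had median log2 folds of -1.28 and -1.5, and those 12 elsewhere -0.26 and -0.34. Some of the 12 lie near an end and were as low as members. HXT12, HXT13 and HXT8, at 19.8 to 26.9 kb, had -1.20 to -0.89 in growing and -1.48 to -1.30 in starved cells. HXT14, at 38.7 kb, had 0.00 and -0.15. Far from an end, HXT4, at 274 kb, had -0.73 and -1.87, while HXT2, at 635 kb, had -0.25 and 0.68. The lower values are thus not particular to members or, as HXT4 shows, to ORFs near an end. HXT15 had 3.80 and 0.109 RPKM in growing cells and 11.2 and 0.831 in starved cells; HXT16, with 94% of its windows shared, had 3.73, 0.109, 11.1 and 0.804, which is not a second measurement. SOR1 and SOR2, sorbitol dehydrogenases that share all 4 values, had 6.02, 1.1, 8.63 and 2.28, and MAN2, a mannitol dehydrogenase, had folds of -0.95 and -0.81. The 9 maltose and isomaltose members had medians of -0.76 and -1.34, with 8 and 9 below 0. They include copies, such as IMA3 and IMA4, which share 100% of their windows, so they are not 9 separate measurements. Of this family elsewhere, IMA5 had -1.16 and -1.80, MAL13 -0.93 and -1.03, IMA1 -0.78 and -0.38, and MAL11 -0.09 and -0.03. They lie 15.1 to 24.3 kb from an end. The maltases MAL12 and MAL32 had the same starved values, 15.3 and 5.44, while the permease MAL31 had folds of 0.07 and -0.29.

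The 4 thiamine and vitamin B6 members, THI11, THI13, SNZ2 and SNO2, had medians of -1.48 and -1.64, and all 4 were at least 2-fold lower in both conditions at any RPKM. By the same rule, 37 of 276 members and 142 of all 6678 rows were lower in both. THI11 and THI13 share 53.8% of their windows, so the 4 are not 4 separate measurements. THI11 had 2.68 and 0.320 RPKM in growing cells and 8.54 and 1.62 in starved cells, and SNZ2 7.43 and 2.01, then 14.1 and 5. Of 6 related genes that are no members, SNO3, SNZ3, THI5 and THI12 lie 10.3 to 14.8 kb from a chromosome end and are close copies of members, so they are no separate evidence. The other 2, SNO1 and SNZ1, lie 466 and 465 kb from an end. They had log2 folds of 0.26 and 0.23 in growing cells, opposite to the members, and of -2.01 and -1.84 in starved cells. The enolase-related ERR1, ERR2 and ERR3 had 0.235 to 0.243 RPKM in growing wild type and 5.20 to 5.34 in starved wild type, and starved folds of -1.40 to -1.38. DDI2, a cyanamide hydratase, had folds of -1.14 in both conditions.

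The vacuolar sorting receptors VTH1 and VTH2 had identical values, with log2 folds of -0.88 and -0.48. PEP1, of the same family but 187 kb from an end, had -0.41 and -0.81. The glutathione exchangers GEX1 (-0.52 and -0.99) and GEX2 (-0.54 and -1.08) lie near 1 RPKM, where the pseudocount shrinks the fold. GEX1 had 1.32 and 0.173 RPKM in starved cells, a plain ratio of 0.131 with an interval of 0.0503 to 0.293, and GEX2, a close copy, a ratio of 0.117. The aryl alcohol dehydrogenases AAD3, AAD4 and AAD15 had starved folds of -0.67 to -0.14. The flocculins FLO9 (-0.87 and -1.05) and FLO10 (-0.25 and -0.70) and the ferric reductase FRE2 (-0.03 and -0.70) were lower than wild type at RPKM values under 10 in all libraries. Of flocculins that are no members, FLO1 had -0.64 and -1.05, FLO5 -0.25 and -0.46, and FLO11 -0.88 and -0.20. The families were listed with earlier results of these data known, so the direction of their medians is a description.

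**Figure D5:**
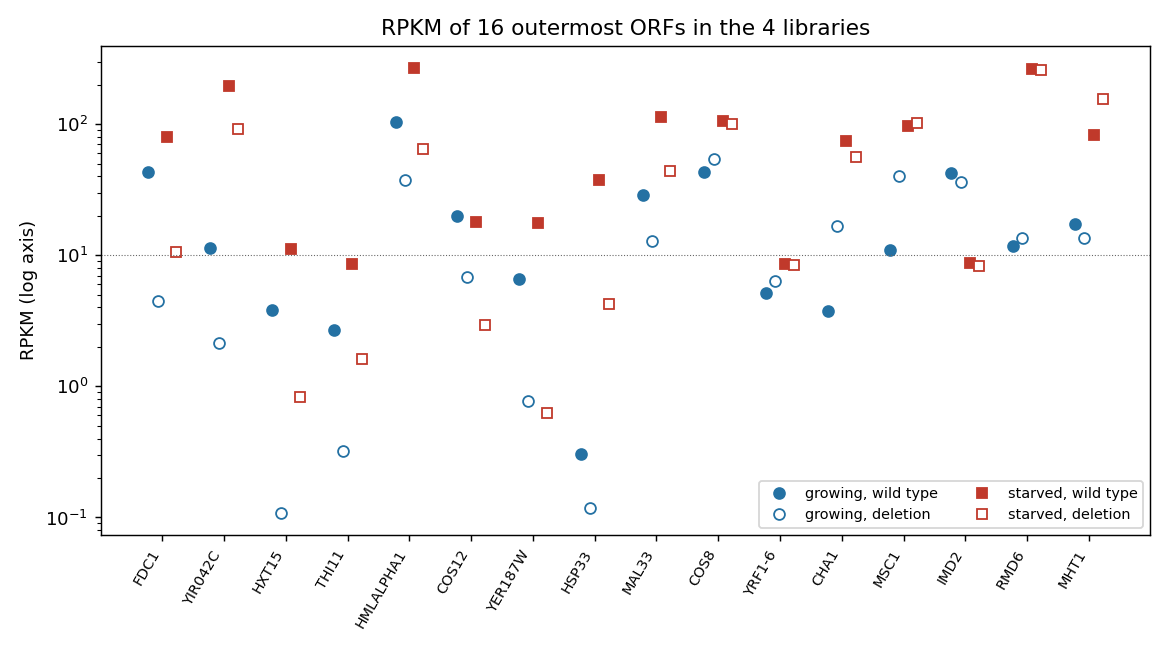
RPKM (y axis, log scale) of 16 outermost ORFs (x axis) in the 4 libraries, blue circles for growing and red squares for starved cells, filled for wild type and open for the deletion, with a dotted line at 10 RPKM. The open symbol lies below the filled one in both conditions for FDC1 (4.47 against 43.2 growing) and COS12, while COS8 and YRF1-6 lie close together and CHA1 and MSC1 are higher in the growing deletion.

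In the deletion, 3 eligible members were at least 2-fold higher, all in growing cells. There, members were 1.4% of the higher ORFs and 1.12% of the eligible ones, so higher members were not scarce. All 3 lay 15.1 to 15.8 kb from an end, with the sixth or seventh number. CHA1, the enzyme that breaks down serine and threonine, had 3.74 and 16.7 RPKM in growing wild type and deletion and 73.7 and 56.5 in starved cells, with log2 folds of 1.90 and -0.38. MSC1, of unknown function, had 10.9 and 40.2, then 96.9 and 102 (1.78 and 0.07). GTT1, a glutathione transferase, had 52.3 and 121, then 433 and 397 (1.20 and -0.13). In each of them both starved libraries were higher than both growing ones. In starved cells the highest fold was that of MHT1, which makes methionine from S-methylmethionine, with 82.5 and 156 RPKM (0.91). YML131W followed with 0.65, and RPN12, a proteasome subunit, and COX14, a cytochrome oxidase assembly factor, had folds of 0.15 or less in size in both conditions.

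Factors of silencing were read as a separate list. Of 18 genes, SIR1 to SIR4, RAP1, RIF1, RIF2, YKU70, YKU80, SAS2, SAS4, SAS5, DOT1, HDA1 to HDA3, TUP1 and CYC8, the median log2 fold was 0.05 in growing and 0.01 in starved cells. None was at least 2-fold higher, and 1, CYC8, was at least 2-fold lower in growing cells, with 18 and 8.24 RPKM (-1.04) and -0.69 in starved cells. SIR3 had 13.2 and 22.0 RPKM in growing cells (0.70) and 28.4 and 38.9 in starved cells (0.44). SIR1 is itself an outermost ORF and had 9.47, 10, 41.9 and 26.8. Whether any of these transcripts bears on the members was not tested.

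After 2 h without nitrogen, eligible outermost ORFs were higher more often than all eligible ORFs in both genotypes. In wild type, 69 of 108 eligible members (63.9%) were at least 2-fold higher, beside a background of 32.7%, and 5 were at least 2-fold lower, beside 13.3%. In the deletion, 46 of 86 (53.5%) were higher, beside 22.4%, and 3 lower, beside 8.77%. An RPKM of 10 was reached by 58 members in growing and 105 in starved wild type, and by 50 and 83 in the deletion. Many members were therefore eligible only through the starved library. The shares that were higher are thus no support for a rise by themselves, and no comparison at similar RPKM is given for them. The median over all ORFs was itself above 0, at 0.52 and 0.35. With libraries scaled by the median of ratios these medians moved by -0.48 and -0.31, 37 of 99 members (37.4%) were then higher in wild type beside 19.1%, and all eligible ORFs were 19.1% higher and 21.2% lower. Member medians were 0.76 and 0.41, and lay below 0 on 1 arm in each genotype, the right arm of chromosome I (-0.02 and -0.02). The starvation and the genotype comparisons share libraries and were not set against each other.

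In wild type, the highest starvation folds belonged to the Hsp31 copies printed above. In the deletion they belonged to SEO1 (5.08) and YIR042C (4.89). HSP33 had 0.305 RPKM in wild type and 0.119 in the deletion while growing, and 37.4 and 4.23 after starvation. Growing levels were near 0 and the starved wild type was far above the other 3 libraries. The log2 folds on starvation were 4.88 and 2.23, and the starved deletion lay below the starved wild type by -2.88. About 5 estimated reads stand behind the growing wild-type value, so the ratio of 123 in wild type has a wide interval, 52.3 to 380. HSP32 and SNO4 had nearly the same values and are copies. YOR392W, next to HSP33 by number, had 32 and 5.36 RPKM in starved cells.

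RMD6, known from screens for meiotic nuclear division, had 11.8, 13.5, 262 and 259 RPKM in growing wild type, growing deletion, starved wild type and starved deletion. Its starvation folds were 4.37 and 4.16, and both genotypes were alike within 0.19 on the log2 scale. SEO1, a putative permease, had 2.32, 0.245, 49.8 and 41.1, with folds of 3.94 and 5.08. PUG1, which moves porphyrins across the plasma membrane, had 3.19 and 49.5 in wild type and 3.96 and 28.8 in the deletion. YPS6, a putative aspartyl protease, had folds of 2.31 and 2.34, and IRC4, of unknown function, of 1.62 and 2.47. Among the most abundant members, YMR321C, with 31.2% unique windows, had 267, 242, 334 and 259 RPKM, and no fold reached 2. DLD3, a 2-hydroxyacid dehydrogenase, had 131, 103, 243 and 304, with starvation folds of 0.88 and 1.55.

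IMD2, an IMP dehydrogenase of guanine nucleotide synthesis, was lower after starvation, with 42.4 and 8.79 RPKM in wild type and 36.4 and 8.21 in the deletion (log2 folds of -2.15 and -2.02). YAR073W (-2.36 and -2.02) and YAR075W (-2.08 and -2.08) had similar folds. They have no RefSeq position or sequence here, and IMD2 has 66.3% unique windows. Whether they share reads with IMD2 could not be checked, so they are not counted as separate evidence. MIX23, a small mitochondrial protein, went from 114 to 50.9 in wild type (-1.15) and from 55.2 to 30.6 in the deletion (-0.83), and YOL155W-A had -1.39 and -0.77. FEX1, a fluoride exporter, had folds of -0.29 and -0.68.

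Promoter words were counted on both strands in the 300 bases before the start codon. GCCGCC, the core of the site of Ume6, which recruits the Rpd3 complex, was found in 22 of 205 members (10.7%) and in 5.22% of all 5977 promoters. Among 34 members at least 2-fold lower in both conditions at any RPKM it was found in 3 (8.82%). These are shown with the word in capitals, 30 bases each: SNZ2 (chrXIV:13032-13061, plus strand, 223 bases before the start codon) and HXT17 (chrXIV:772382-772411, plus strand, 263 bases before it). The SNZ2 site is also that of SNO2, which is read in the other direction from the same stretch, 173 bases away.

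SNZ2: ataaagtgacgcGCCGCCcaatggcataac
HXT17: tattcaaaagaaGGCGGCaagcagtatcaa

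GATAAG, read by GATA factors, was in 17.1% of members and 14.7% of all promoters, CCCCT, read by Msn2 and Msn4, in 18.5% and 22.2%, and TCGTATA, read by Upc2, in 8.29% and 4.62%. Many members share promoters as copies, and a match is a string of letters, not a bound site.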

How the data were processed

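The submitters' processing notes name CASAVA 1.8.2, Bowtie2 2.1.0 and the build sacCer3. The authors deposited RPKM, with 1 value for each ORF and library. Not given in the sources used here are the program that counted reads, its annotation and whether strand was used. ORFs that overlap others or lie antisense to them are therefore uncertain. Values were used as deposited. Sums of RPKM were 1101484, 1097557, 883544 and 976219. Another 24 rows have no chromosome name.

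Positions, telomeric regions and 50-base windows came from RefSeq R64. A group of near-identical members shares at least 50% of the windows of the shorter ORF or all 4 values. Depth was estimated from the smallest step among low values. Of these values, 46.4% to 55.2% fell within 0.1 of a whole read, compared with 19.6% to 24.5% with a step 3% off, so depth is rough. Intervals are binomial (95%) and cover counting error only.

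With 1 library per group no test was made, and no additive model was fitted over the 4 libraries together. The size rule (pseudocount 1, RPKM of at least 10, 2-fold) was tried on simulated counts with counting error only and no read sharing. Changes were planted only in ORFs expressed above most members, so the simulation does not cover weakly expressed or repeated members. Alternatives were other pseudocounts, filters, scalings, numbers per arm and subsets of members. Named genes were the 6 highest and 6 lowest eligible members per comparison, the 6 most abundant, and up to 3 per family by size of fold, not all of which are printed, besides genes given for contrast or said to be chosen afterwards. Members, lists and words were chosen with earlier results of these data known. Python 3.11.15, pandas 2.3.3 and numpy 2.4.6 were used.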

Additional observations from a re-analysis of the deposited data

Results flagged for a closer look

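CHA1 was higher in the growing deletion than in growing wild type (log2 fold 1.90) and lower than wild type when both were starved (-0.38). GTT1 did the same, with 1.20 and -0.13. They are given here because they were at least 2-fold different in one condition, reached an RPKM of 10 in both conditions and changed sign; other members also changed sign, with smaller folds or lower levels. With 1 library per group the difference between conditions was not tested, and both starved folds are under 2-fold.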

How the results depend on the processing

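The groups have 1 library each. No paired analysis was possible because each group has a single replicate. Under every alternative run, the median fold of the members kept its direction, from -0.43 to -0.05 in growing and -0.73 to -0.28 in starved cells for deletion over wild type, and from 0.37 to 1.22 (wild type) and 0.23 to 0.76 (deletion) on starvation. Equal sums of RPKM moved the median of all ORFs in the starved genotype comparison by -0.14, and on starvation by 0.30 and 0.15, while the upper quartile moved the latter by -0.26 and -0.17.

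Of the alternative counts, 76 stayed within 1.5 times the reported count and 36 did not. With a pseudocount of 5, 8 members were lower in growing cells. With no filter, 46 and 71 were lower in the growing and starved deletion, and 106 and 76 higher on starvation in wild type and deletion. At an RPKM of at least 30 these were 6 and 16, and 45 and 25. Scaled by median of ratios, 1 member was higher in the starved deletion and 37 and 27 were higher on starvation. With 5 numbers per arm, 0 were higher and 7 lower in the growing deletion, 40 and 22 were higher on starvation, and 3 were lower in wild type. With 10 numbers, 9 and 1 were higher in the growing and starved deletion, 115 and 86 were higher on starvation, and 10 and 8 lower. Members in RefSeq alone gave 3 and 1 lower on starvation. Among members with at least 90% unique windows, an alternative chosen after seeing the data, 17 were lower in the starved deletion, 33 and 23 were higher on starvation, and 1 and 0 lower. The sets differ in size: in each, the share lower in both genotype comparisons stayed above that of all eligible ORFs. With an RPKM of at least 10 in both libraries, also chosen afterwards, 8 and 12 were lower in the growing and starved deletion, 30 and 22 higher on starvation, and 2 and 1 lower. Counting near-identical groups once, also chosen afterwards, left 15 of 56 and 30 of 88 lower.

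Depth limits members under 1 RPKM, of which there were 59, 102, 33 and 62 in the 4 libraries, and read sharing limits most others.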
